A study of Mus musculus with 12 samples.

Results

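The genes described here are 7 monocarboxylate transporters of the SLC16 family, Slc16a1, Slc16a3, Slc16a5, Slc16a6, Slc16a7, Slc16a10 and Slc16a13, together with Bsg, which encodes basigin, the chaperone of some of these transporters. These 8 genes, of 41444 in the expression table, were measured by RNA-seq in mouse B cell acute lymphoblastic leukaemia (B-ALL) cells with and without LY2090314, a small-molecule inhibitor of the kinase GSK3. GSK3 marks β-catenin for destruction, so an inhibitor of GSK3 stabilises β-catenin. The set was chosen by the rise of Slc16a5 in this same comparison, so the values of its members are given as a description and carry no test.

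Pre-B cells from the bone marrow of Ctnnb1 fl/fl mice, whose β-catenin gene is flanked by loxP sites, were grown with IL7, transformed with a BCR-ABL1 retrovirus and then kept without IL7. They carried either ERT2, the hormone-binding domain alone, or CreERT2, and all of them received 1 µM 4-OHT (4-hydroxytamoxifen) for 2 days. Of the 4 groups of 3 samples, the 2 ERT2 groups are compared here: cells with 4-OHT alone (control) and cells that also received 40 nM LY2090314 for 1 day by the labels, where the study's own description gives a shorter time. The floxed alleles are present in both groups and ERT2 has no recombinase, so β-catenin was not deleted in either. The CreERT2 groups were not analysed here, because the column names do not tell them apart. The study describes cultures from 3 mice, and 2 of the LY2090314 columns, 14A and 14B, share a number whose meaning is not given, so p-values measure the spread between these samples, which may in part be technical.

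Values are rlog values, a log2 scale on which read counts were divided by size factors and low genes were drawn towards their own mean, so differences of low genes are understated. Without counts, library depth is unknown. A difference of 1 on this scale is a 2-fold change. The SD over genes of the difference between samples was 0.19 to 0.24 within the control group and 0.19 to 0.25 within the LY2090314 group, against 0.58 to 0.62 for samples of different groups. Transcripts of Ctnnb1 itself were present in both groups. Their mean was 12.19 ± 0.0042 (SD, n = 3) in control cells and 11.85 ± 0.025 (SD, n = 3) with LY2090314. This fall of the Ctnnb1 transcript, a difference of -0.35 (SE 0.042), had an adjusted p of 0.000296 by limma with Benjamini-Hochberg adjustment over all genes tested. A value for the whole gene does not show whether the floxed part is intact. In bulk RNA, fewer cells of a type and less RNA per cell cannot be told apart.

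Monocarboxylate transporters are membrane proteins that carry small organic acids. The best known of them, MCT1 (Slc16a1), MCT2 (Slc16a7) and MCT4 (Slc16a3), move lactate, pyruvate and ketone bodies together with a proton, in the direction that the gradients set. Glycolytic cells, among them leukaemia cells, use them to export the lactate and protons that glycolysis makes. MCT1 and MCT4 need basigin (CD147) to reach the cell surface, whereas MCT2 pairs with embigin (Emb). Other members of the family carry other cargo, such as the aromatic amino acids moved by Slc16a10 (TAT1).

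Genes with a mean rlog value of at least 3 over the 6 samples were tested, which kept 6 of the 8 members and 11536 genes in all. Among the 6 members, 3 passed the threshold of 0.05 and were higher with LY2090314 and 0 were lower, where the background is that 50.1% of all genes tested passed it, 24.8% higher and 25.3% lower. The 2 groups did not overlap for 3 of the 6 members, where the background is 58.6% of all genes tested. Since Slc16a5 was selected on this contrast, nothing is read from these counts.

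Slc16a5 (ENSMUSG00000045775), which encodes MCT6, a transporter known mainly for carrying drugs such as bumetanide, went from among the low genes to above the middle of the range. It lies at chr11:115462474-115474398 on the plus strand of GRCm38. Its rlog values were 5.06, 5.09 and 4.997 in control samples 1, 2 and 3 and 9.88, 9.94 and 10.04 in LY2090314 samples 14A, 14B and 15. Each LY2090314 sample was far above each control sample, and samples of a group lay close together. The mean was 5.05 ± 0.048 (SD, n = 3) in control cells and 9.96 ± 0.083 (SD, n = 3) with LY2090314, a difference of 4.91 (SE 0.081, 95% interval 4.72 to 5.09), which is 30.0-fold on the rlog scale. This was the rise at rank 4 of the 11536 genes tested. The mean level was above that of 13.4% of the genes tested in control cells and of 66.9% with LY2090314.

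The start of the Slc16a5 coding sequence is shown because an antisense gene, Gm11695, covers part of it, so that reads from this stretch belong to both genes unless strand is used. The library kit was stranded, and whether the counting used strand is not given in the sources used here. The coding part of exon 1, in a transcript of 4 exons, spans chr11:115462609-115462807 (GRCm38, plus strand) and is printed from its ATG, with the 104 bases that lie in an exon of Gm11695 in capitals.
Slc16a5: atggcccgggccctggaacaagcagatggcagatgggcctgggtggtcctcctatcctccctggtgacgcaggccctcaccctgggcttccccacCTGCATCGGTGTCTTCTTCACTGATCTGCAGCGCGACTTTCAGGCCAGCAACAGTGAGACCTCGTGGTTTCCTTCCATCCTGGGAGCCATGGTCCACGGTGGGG
Gm11695 had rlog values of 3.57, 3.61 and 3.58 in the control samples and 4.98, 5.17 and 5.34 in samples 14A, 14B and 15. It was higher with LY2090314 without overlap, by 1.58 (SE 0.10, limma adjusted p = 1.18e-05), a smaller difference than that of Slc16a5.

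Slc16a6 (ENSMUSG00000041920, chr11:109450855-109473598, minus strand) encodes MCT7, a transporter linked to ketone body export. It was already well expressed in control cells, at 9.84, 9.79 and 9.73, and stood at 10.84, 10.91 and 10.75 in samples 14A, 14B and 15. All LY2090314 samples were above all control samples. The means of 9.78 ± 0.057 and 10.83 ± 0.078 (SD, n = 3 each) differed by 1.05 (SE 0.058, 95% interval 0.91 to 1.18), or 2.07-fold. Amz2 on the opposite strand shares 1052 exon bases with Slc16a6, and Amz2 also rose, from 7.94 to 8.78, a difference of 0.84 (SE 0.11, limma adjusted p = 0.00037). Arsg, also on the opposite strand, shares 48 bases and had a difference of -0.12 (SE 0.075, limma adjusted p = 0.224), which did not pass the threshold. Gm25540, a microRNA gene on the same strand, shares 49 bases and had no value. As for Gm11695, reads from bases shared with Amz2 belong to both genes unless strand is used. How far the rises of Slc16a6 and Amz2 come from the same reads was not tested.

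Slc16a1 (ENSMUSG00000032902, chr3:104638668-104658462, plus strand), the widely expressed lactate and pyruvate transporter MCT1, was among the most abundant transcripts of these cells. Its control mean was above that of 97.8% of the genes tested. The values were 13.56, 13.55 and 13.37 in the control samples and 13.90, 13.95 and 13.89 in samples 14A, 14B and 15. The groups did not overlap, and control sample 3 was the lowest. The means of 13.49 ± 0.11 and 13.91 ± 0.032 (SD, n = 3 each) differed by 0.42 (SE 0.067, 95% interval 0.26 to 0.57), or 1.34-fold.

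The sequence just upstream of the Slc16a1 start is shown because Slc16a1 is the main transporter of these cells and its promoter is rich in CpG. Promoter windows from RefSeq (GRCm38.p6) were matched for 3 members, Slc16a1, Slc16a3 and Slc16a10. The 250 bases before the annotated start, chr3:104638414-104638663 on the plus strand, are printed with an E-box (CACGTG, the same on both strands) in capitals, which begins at position -200 from the start.
Slc16a1: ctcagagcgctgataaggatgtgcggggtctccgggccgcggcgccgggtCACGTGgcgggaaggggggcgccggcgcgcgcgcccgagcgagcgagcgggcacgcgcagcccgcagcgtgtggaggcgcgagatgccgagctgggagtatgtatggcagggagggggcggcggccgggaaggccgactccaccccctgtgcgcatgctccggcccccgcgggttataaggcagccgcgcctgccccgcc
The Slc16a1 window had 73.7% G and C and 42 CpG, against medians of 52.7% and 7 over 32851 windows. The windows of Slc16a3 and Slc16a10 had 73.3% and 65.3% G and C and 36 and 26 CpG, and held no E-box. The E-box was found in 7.15% of all windows. A TCF/LEF motif (CTTTG followed by 2 bases that are each A or T, on either strand), the kind of sequence bound by partners of β-catenin, was in 16.9% of all windows and in none of the 3. These are matches of letters in short windows and do not show which factor binds there.

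**Figure D1:**
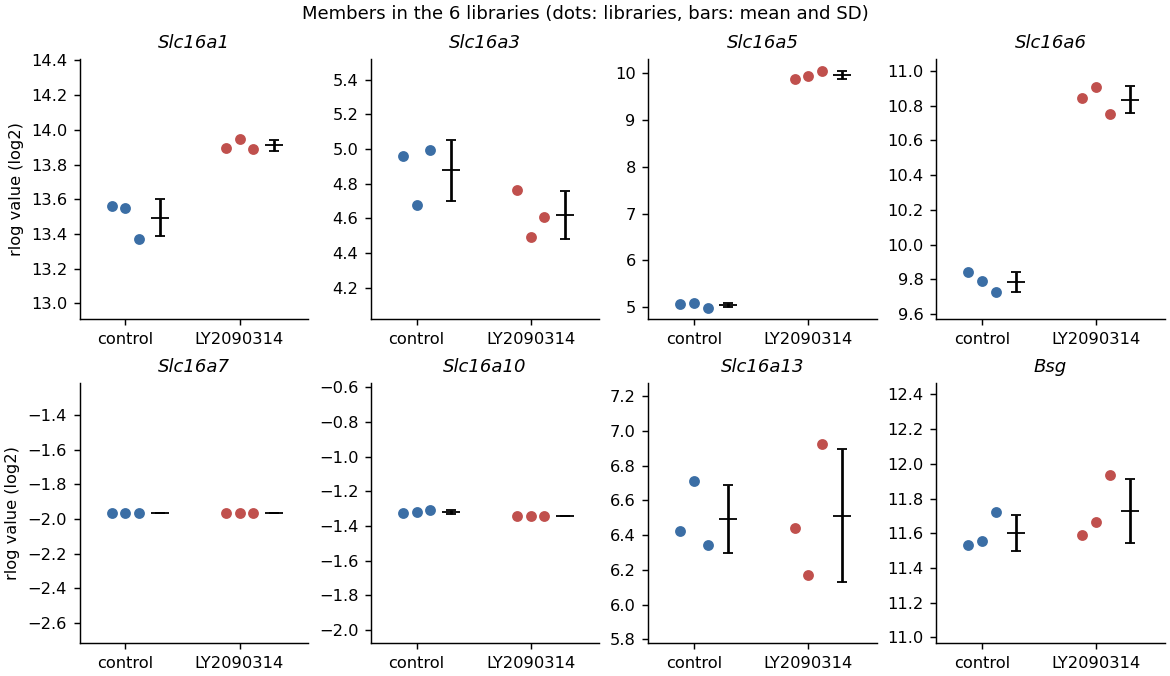
rlog values (log2, y axes with their own ranges) of the 8 members in the 3 control samples (blue) and the 3 LY2090314 samples (red, 14A, 14B and 15 from left to right), with the mean and SD of each group beside the dots. Slc16a5, Slc16a6 and Slc16a1 were higher in every LY2090314 sample, the groups of Slc16a3, Slc16a13 and Bsg overlapped, and Slc16a7 and Slc16a10 were at the bottom of the scale in all 6.

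Bsg (ENSMUSG00000023175, chr10:79704491-79711969, plus strand), which encodes the chaperone basigin, was abundant in both groups. Its values were 11.53, 11.55 and 11.72 in the control samples and 11.59, 11.66 and 11.94 in samples 14A, 14B and 15. The groups overlapped, with control sample 3 above samples 14A and 14B. The means of 11.60 ± 0.10 and 11.73 ± 0.18 (SD, n = 3 each) differed by 0.13 (SE 0.096), with a 95% interval of -0.09 to 0.35. This interval holds 0 and ends below the 0.42 of Slc16a1, whose own interval of 0.26 to 0.57 overlaps it. Within each sample, the log2 level of Slc16a1 minus that of Bsg (not per length) was 2.03, 2.00 and 1.65 in the control samples. It was 2.31, 2.28 and 1.95 in samples 14A, 14B and 15, so this gap between transporter and chaperone overlapped between the groups. Slc16a1 has 4426 exon bases and Bsg 1814, so the size of the gap depends in part on length.

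Slc16a3 (ENSMUSG00000025161, chr11:120948480-120960868, plus strand) encodes MCT4, the lactate exporter typical of strongly glycolytic cells, and was low in both groups. It stood at 4.96, 4.67 and 4.996 in the control samples and at 4.76, 4.49 and 4.60 in samples 14A, 14B and 15. The groups overlapped, since sample 14A was above control sample 2. The means of 4.88 ± 0.18 and 4.62 ± 0.14 (SD, n = 3 each) differed by -0.26 (SE 0.12, 95% interval -0.53 to 0.02). Without control sample 2 the difference was -0.36, and with quantile normalization it was -0.41. Both of these alternatives took Slc16a3 past the threshold as lower, which the main fit did not, and members carry no test here.

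Slc16a13 (ENSMUSG00000044367, chr11:70216789-70221064, minus strand) encodes MCT13, a less studied member. Its values of 6.42, 6.71 and 6.34 in the control samples were interleaved with those of 6.44, 6.17 and 6.93 in samples 14A, 14B and 15. The spread within groups was larger than that of 96.1% of the genes tested. The means of 6.49 ± 0.20 and 6.51 ± 0.38 (SD, n = 3 each) differed by 0.02 (SE 0.19, 95% interval -0.43 to 0.47), and the sign turned to -0.19 without sample 15 and to -0.06 with quantile normalization.

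The remaining members did not reach the level for testing. Slc16a7 (ENSMUSG00000020102, chr10:125219270-125389465, minus strand), which encodes MCT2, a transporter with high affinity for pyruvate, had a value of -1.96 in each of the 6 samples. Slc16a10 (ENSMUSG00000019838, chr10:40033532-40142258, minus strand), the aromatic amino acid transporter TAT1, stood at -1.33, -1.32 and -1.31 in the control samples and at -1.34 in each LY2090314 sample. The 0.02 between its group means is on the part of the scale where rlog values of genes with few reads hardly move, and without counts no limit on the level can be given.

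**Figure D2:**
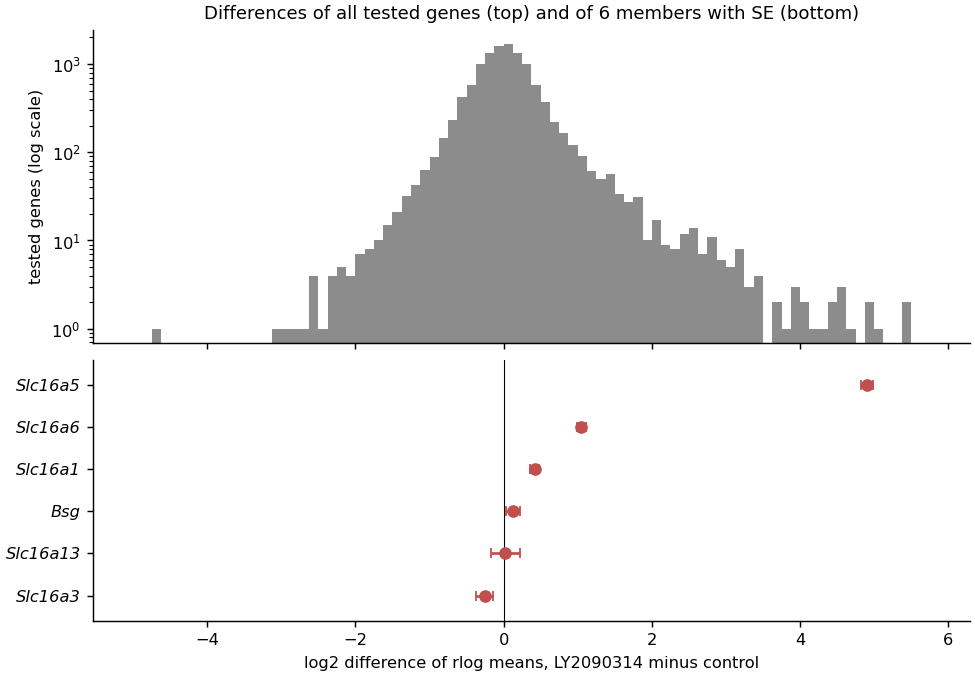
Top, number of tested genes (log axis) by log2 difference of rlog means, LY2090314 minus control. Bottom, the differences of the 6 tested members on the same x axis with their SE. Slc16a5, at 4.91, stood in the far right tail, Slc16a6 at 1.05 and Slc16a1 at 0.42 stood to the right of 0, and Bsg (0.13), Slc16a13 (0.02) and Slc16a3 (-0.26) lay near the peak.

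To set the levels of the genes side by side, the rlog value was divided, on the linear scale, by the length of the union of the exons of the gene in kilobases. On this log2 level per kilobase, control cells had the order Slc16a1 (11.35 ± 0.11), Bsg (10.74 ± 0.10), Slc16a6 (7.496 ± 0.057), Slc16a13 (5.11 ± 0.20), Slc16a5 (3.16 ± 0.048) and Slc16a3 (2.47 ± 0.18; SD, n = 3 each). In both groups the levels of neighbours in the order differed by more than their SDs. With LY2090314 the log2 levels per kilobase were 11.76 ± 0.032 for Slc16a1, 10.87 ± 0.18 for Bsg, 8.55 ± 0.078 for Slc16a6, 8.07 ± 0.083 for Slc16a5, 5.13 ± 0.38 for Slc16a13 and 2.21 ± 0.14 for Slc16a3. Slc16a5 thereby passed Slc16a13 and came to the level next below Slc16a6 with this length. With the median coding transcript as the length, the order of the means was the same. Slc16a1 (11.35 ± 0.11) and Bsg (11.28 ± 0.10) then differed by less than their SDs in control cells. In control sample 3, Bsg was the higher of them, at 11.40 against 11.22. With the longest transcript the order was also the same. Slc16a6 (8.76 ± 0.078) and Slc16a5 (8.73 ± 0.083) then differed by less than their SDs with LY2090314. In sample 15, Slc16a5 was the higher of them, at 8.82 against 8.67.

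As shares of the summed linear level per kilobase of the 5 tested SLC16 members, Slc16a1 made up 91.9% ± 0.25 in control cells and 83.6% ± 0.30 with LY2090314. Slc16a14, a tested gene of the family that is not a member, was not in this sum. The share of Slc16a6 was 6.37% ± 0.25 and 8.98% ± 0.35, and that of Slc16a5 was 0.316% ± 0.013 and 6.46% ± 0.41 (SD, n = 3 each). Slc16a13 held 1.23% ± 0.13 and 0.867% ± 0.25, and Slc16a3 held 0.197% ± 0.033 and 0.112% ± 0.012. Slc16a1 thus remained the main transporter transcript in every sample. Most of the share that it lost was held by Slc16a5, the gene chosen for its rise. The level of Slc16a1 itself rose, from an rlog mean of 13.49 to 13.91. Its share fell as other levels in the sum rose by more, so nothing is read from this shift. The shares rest on the length used: with the median coding transcript, Slc16a5 had 0.620% and 11.5%, and Slc16a1 had 74.98% and 61.8%.

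The transporters were also compared in pairs within each sample. The log2 level of Slc16a5 minus that of Slc16a6 (not per length) was -4.73 ± 0.039 in control cells and -0.88 ± 0.15 with LY2090314. Slc16a1 exceeded Slc16a5 by 8.44 ± 0.064 and 3.95 ± 0.096, and exceeded Slc16a6 by 3.71 ± 0.060 and 3.08 ± 0.052. The difference between Slc16a1 and Slc16a3 widened from 8.62 ± 0.25 to 9.29 ± 0.16 (SD, n = 3 each). None of these 4 pairs overlapped between the groups, whereas the pair of Slc16a1 and Bsg, given above, did. Slc16a5 was chosen for its rise and no background over other pairs of genes was computed, so nothing is read from this.

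**Figure D3:**
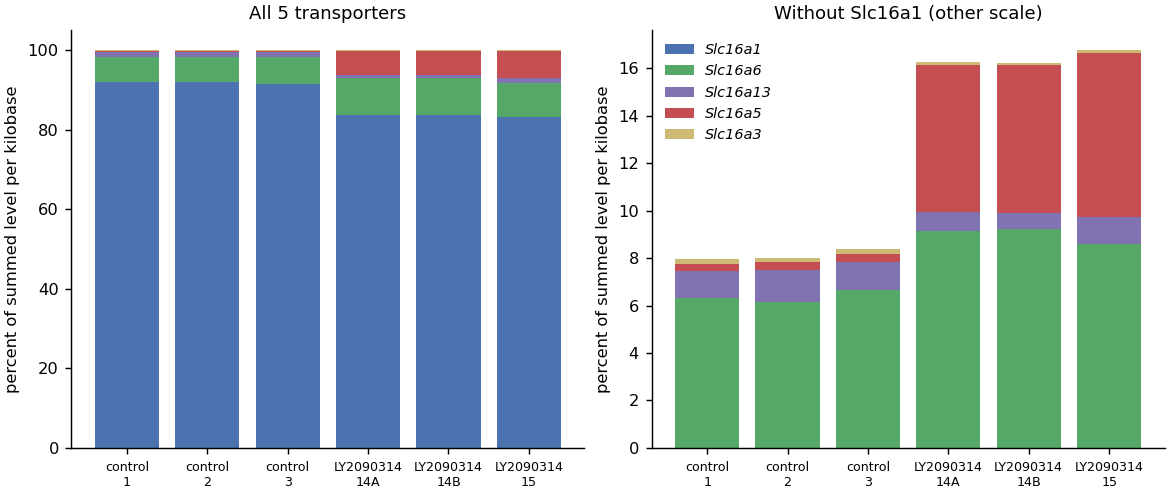
Share (percent) of each of 5 transporters in their summed linear level per kilobase of exon, in each of the 6 samples, with all 5 on the left and without Slc16a1, on another scale, on the right. Slc16a5 went from a sliver (0.316% on average) in the control samples to 6.46% in the LY2090314 samples. The share of Slc16a1 went from 91.9% to 83.6%, although its level rose.

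Of the 8 genes, 4 lie on chromosome 11, 3 on chromosome 10 and 1 on chromosome 3, and the nearest protein-coding genes on both sides were examined. Armc7 starts 1269 bases beyond Slc16a5 on the same strand and rose from 6.70 to 7.52, by 0.81 (SE 0.096, limma adjusted p = 0.000274). Trim80, on the other side, was below 0 in all samples and was not tested. Around Slc16a6, Wipi1, which encodes an autophagy protein and lies 99733 bases away, rose from 5.35 to 7.15, by 1.80 (SE 0.098, limma adjusted p = 4.27e-06), and 9930022D16Rik was not tested.

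Neighbours of the other members moved in either direction. Lrig2, next to Slc16a1, rose by 0.57 (SE 0.13, limma adjusted p = 0.00714), and Fam19a3 was listed at 0. Csnk1d, whose casein kinase 1δ acts on many substrates and which ends 881 bases from Slc16a3, rose by 0.31 (SE 0.048, limma adjusted p = 0.00123), whereas Ccdc57 on the other side had -0.25 (SE 0.11, adjusted p = 0.0825). Hcn2, an ion channel gene beside Bsg, fell by 0.40 (SE 0.077, limma adjusted p = 0.00353), and Gzmm had 0.10 (SE 0.081, adjusted p = 0.330). Rpf2, a ribosome assembly gene beside Slc16a10, fell by 0.37 (SE 0.074, limma adjusted p = 0.00381), and Mfsd4b1 was listed at 0. The family member Slc16a11 lies 372 bases from Slc16a13 and, like Bcl6b on the other side, was too low to be tested. Lrig3 beside Slc16a7 was also below the level for testing, at means of 2.09 and 3.06.

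Within 250 kb of the start of Slc16a5, 3 of 15 tested coding genes rose, 4 fell and 8 did not pass the threshold. Their median log2 difference was 0.02, against 0.01 over all genes tested, of which 24.8% rose and 25.3% fell. Around Slc16a6, 3 of 5 rose, among them the overlapping Amz2, 0 fell and 2 did not pass. Around Bsg, 5 of 15 rose, 3 fell and 7 did not pass. The largest difference in that window, 3.05 (SE 0.061), was that of Palm, named here after its value was seen. The counts higher, lower and not called were 2, 1 and 1 around Slc16a1, 1, 6 and 3 around Slc16a3, 0, 3 and 2 around Slc16a10, and 4, 5 and 3 around Slc16a13, while no tested gene lay within this distance of Slc16a7.

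**Figure D4:**
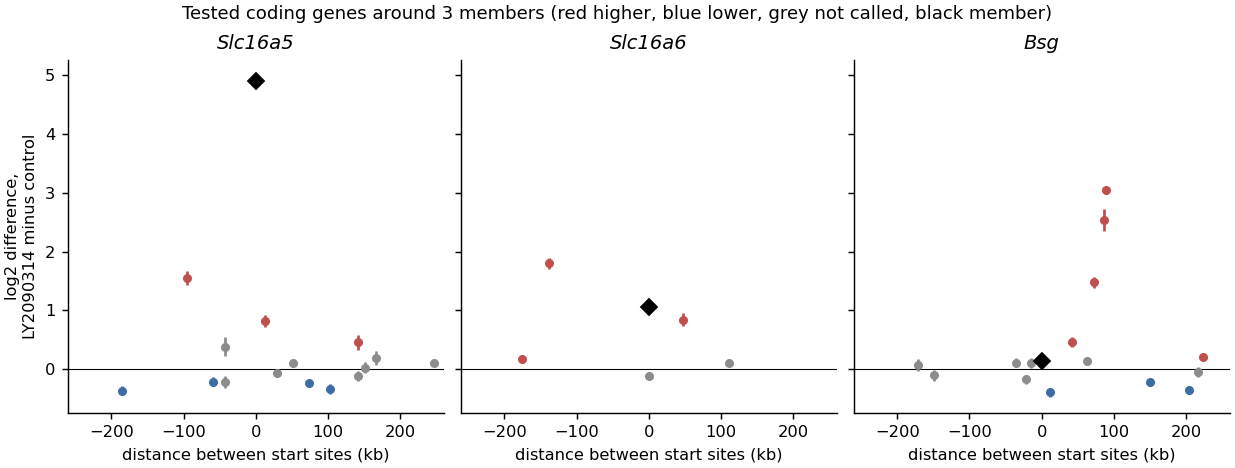
Log2 difference of rlog means (y axis, LY2090314 minus control, bars SE) of tested coding genes by the distance of their start from that of the member (x axis, kb), for Slc16a5, Slc16a6 and Bsg (black diamonds). Red genes rose, blue genes fell and grey genes did not pass the threshold. Slc16a5 (4.91) was higher than each of its 15 neighbours, whereas Slc16a6 (1.05) and Bsg (0.13) each had neighbours with larger rises. Since Slc16a5 was chosen for its rise, nothing is read from its place above them.

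Among the other SLC16 genes, only Slc16a14, of 7, was high enough for testing. Its values were 5.80, 5.67 and 5.74 in the control samples and 6.57, 6.44 and 6.39 in samples 14A, 14B and 15. The groups did not overlap, and Slc16a14, an orphan transporter, rose by 0.73 (SE 0.091, limma adjusted p = 0.000352). Slc16a8 and Slc16a9 were listed at 0 in all samples, and Slc16a4, Slc16a11 and Slc16a12 were below 0.

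Of 7 other monocarboxylate carriers and accessory proteins, 5 were tested, of which 2 rose, 1 fell and 2 did not pass the threshold, with a median difference of -0.10. The background over all genes tested was 24.8% higher and 25.3% lower. Emb, the embigin chaperone, had values of 6.82, 6.86 and 6.91 in the control samples and 8.31, 8.22 and 8.55 in samples 14A, 14B and 15. It rose without overlap by 1.499 (SE 0.10, limma adjusted p = 1.35e-05). Emb remained below Bsg in each sample, by -4.74 ± 0.065 in control cells and -3.37 ± 0.086 with LY2090314 (SD, n = 3 each; log2 level of Emb minus that of Bsg, not per length). Nptn, whose product neuroplastin is a relative of basigin, rose by 0.20 (SE 0.054, limma adjusted p = 0.0169), a call that was lost without sample 14B and with 14A and 14B counted as 1 sample (adjusted p = 0.0637 at most over the alternatives). Ppia, the cyclophilin that binds basigin, had -0.19 (SE 0.064, adjusted p = 0.0357), and its call was lost without control sample 2, control sample 3, sample 14A or sample 14B, and with 14A and 14B counted as 1 sample (adjusted p = 0.134 at most). The mitochondrial pyruvate carrier genes Mpc1 and Mpc2 had differences of -0.10 (SE 0.073) and -0.15 (SE 0.090) and did not pass the threshold.

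Enzymes that make and use lactate and pyruvate changed in both directions. Of 23 genes, 15 were tested, 8 rose, 4 fell and 3 did not pass the threshold, with a median difference of 0.16. Over all genes tested, 24.8% rose and 25.3% fell. Ldha, the subunit of lactate dehydrogenase that dominates in glycolytic cells, had 14.33, 14.37 and 14.53 in the control samples and 13.66, 13.64 and 14.002 in samples 14A, 14B and 15. It fell by 0.64 (SE 0.11, limma adjusted p = 0.00175), with sample 15 the highest of its group and no overlap. Pdk1, a kinase that inhibits pyruvate dehydrogenase, rose by 0.72 (SE 0.044, adjusted p = 7.55e-06), whereas Pdp1, the phosphatase that reverses this inhibition, fell by 0.57 (SE 0.074, adjusted p = 0.000465). Dlat, the E2 subunit of pyruvate dehydrogenase, rose by 0.59 (SE 0.074, adjusted p = 0.000361). Me3, a mitochondrial malic enzyme, rose by 1.00 (SE 0.072, adjusted p = 1.88e-05) from a control mean of 2.97, below the filter of 3. Me3 was tested only through its LY2090314 mean of 3.97, so its call and its place among the 8 rises rest on that. Pdk3 fell by 0.22 (SE 0.075, adjusted p = 0.0432), a call that was lost when any sample but sample 15 was left out, without a trend, without a filter and with 14A and 14B counted as 1 sample (adjusted p = 0.137 at most over the alternatives). The call of Pdhb (0.16), a subunit of pyruvate dehydrogenase, was lost without control sample 1, control sample 2, sample 14B or sample 15, without a trend, with median centring and with 14A and 14B counted as 1 sample (adjusted p = 0.124 at most). That of Dld (-0.20), another subunit, was lost without control sample 2 or sample 14A (adjusted p = 0.0526 at most). Ldha and Ppia have many processed pseudogenes, and how reads of such copies were divided is not known here.

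Of 8 genes of ketone body use, 6 were tested, 1 rose and 5 fell, with a median difference of -0.38, where 24.8% of all genes tested rose and 25.3% fell. Bdh1, the mitochondrial enzyme that interconverts β-hydroxybutyrate and acetoacetate, stood at 9.80, 9.70 and 9.75 in the control samples and at 11.19, 11.09 and 11.03 in samples 14A, 14B and 15. It rose by 1.35 (SE 0.057, limma adjusted p = 1.19e-06). Oxct1, the enzyme that commits ketone bodies to oxidation, fell by 0.55 (SE 0.080, adjusted p = 0.000811). Hmgcs1 fell by 0.46 (SE 0.067, adjusted p = 0.000782) and Acat1 by 0.44 (SE 0.086, adjusted p = 0.00387), and Hmgcs1 and Acat2 are known for cholesterol synthesis in the cytosol rather than for ketone bodies.

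Of 23 genes that move or buffer protons and bicarbonate, 14 were tested, 3 rose, 5 fell and 6 did not pass the threshold, with a median difference of -0.25. Among all genes tested, 24.8% rose and 25.3% fell. The falls were led by carbonic anhydrases, which interconvert carbon dioxide and bicarbonate. Car13 fell by 1.75 (SE 0.058, limma adjusted p = 3.64e-07), Car2 by 1.49 (SE 0.058, adjusted p = 8.07e-07) and Car3 by 1.22 (SE 0.13, adjusted p = 0.000145). Car2 was the most abundant of them, at 12.48, 12.44 and 12.51 in the control samples and 10.92, 10.95 and 11.10 in samples 14A, 14B and 15. Slc9a9, an endosomal sodium-proton exchanger, rose by 0.82 (SE 0.092, adjusted p = 0.000213).

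Other differences in the same list passed or missed the threshold depending on the samples and settings. Car15 had a difference of 0.37 (SE 0.13, limma adjusted p = 0.0467), and its call was lost when any sample but sample 15 was left out, and also without a filter, with median centring, with quantile normalization and with 14A and 14B counted as 1 sample (adjusted p = 0.125 at most over the alternatives). Slc4a2, an anion exchanger, had 0.26 (SE 0.078, adjusted p = 0.0248), and its call was lost without control sample 2, control sample 3, sample 14A or sample 14B, without a filter and with 14A and 14B counted as 1 sample (adjusted p = 0.0898 at most). Slc9a8 had 0.35 (SE 0.14, adjusted p = 0.0763) with all samples and passed the threshold without sample 15, at 0.54 (adjusted p = 0.000369). Car9, at -0.29, passed without sample 14B, without a mean-variance trend, with median centring, with quantile normalization and with 14A and 14B counted as 1 sample (adjusted p = 0.00964 to 0.146 over the alternatives). Slc4a7, like Car9 and Slc9a8 named after its values were seen, had 7.58, 4.13 and 6.72 in the control samples. Its values were 4.13, 4.11 and 6.31 in samples 14A, 14B and 15, a split that does not follow the groups. The difference of Slc4a7 was -1.29 (SE 0.91, adjusted p = 0.273) with all samples and -2.296 (adjusted p = 0.0321) without control sample 2.

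**Figure D5:**
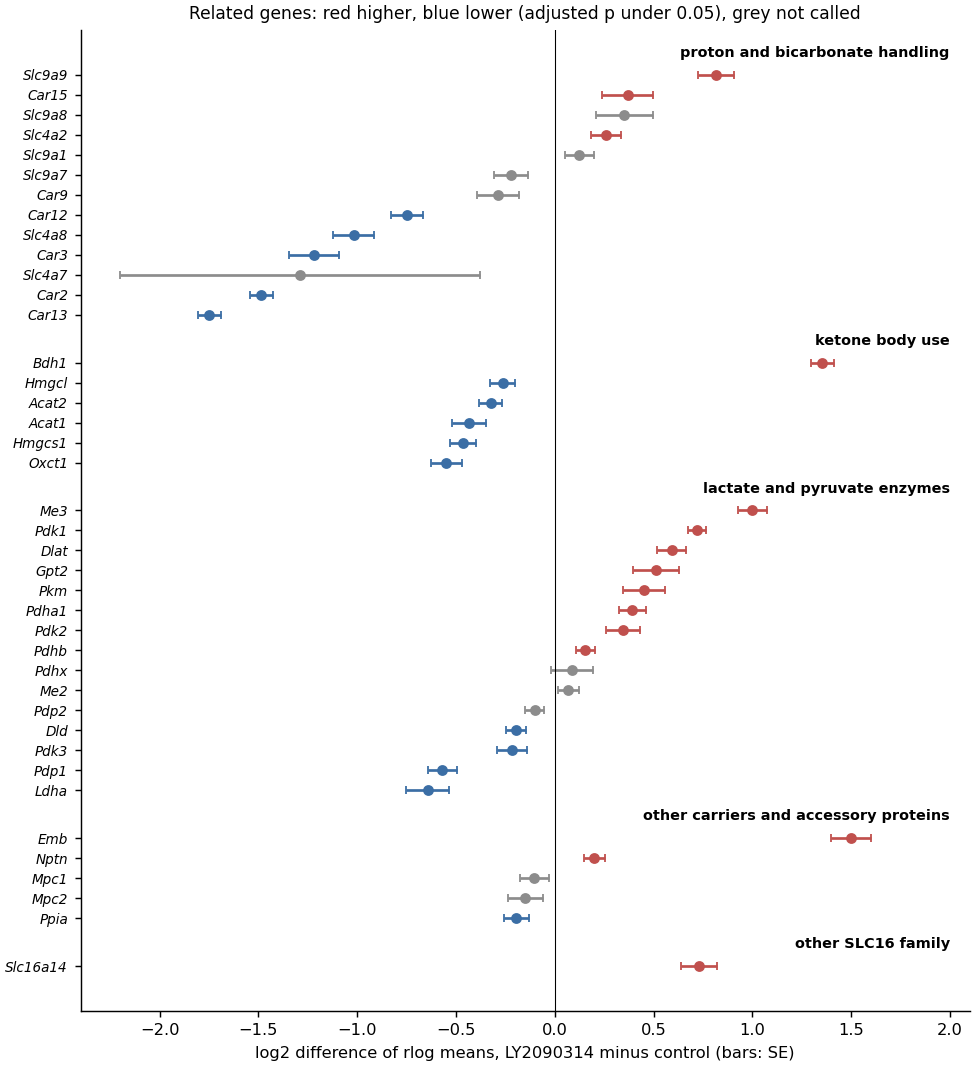
Log2 difference of rlog means (x axis, LY2090314 minus control, bars SE) of tested genes of 5 lists around the transporters. Red genes rose, blue genes fell (limma adjusted p under 0.05) and grey genes did not pass. Emb (1.499) and Bdh1 (1.35) had the largest rises and Car13 (-1.75) and Car2 (-1.49) the largest falls that passed.

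Cell identity markers moved in the same comparison, and their part in these results was not tested. All 10 B lineage markers were expressed, 9 fell and 1, Cd79a, had a difference of 0.23 that did not pass the threshold. The shares over all genes tested were 24.8% higher and 25.3% lower. Among the 9 calls, 1 was lost when any sample but sample 15 was left out, without a trend, without a filter and with 14A and 14B counted as 1 sample, and Cd79a passed without sample 15, with a mean rlog value of at least 5 and with quantile normalization (adjusted p = 0.00773 at least). The median difference was -1.02, and Rag1, Pax5 and Igll1 had differences of -1.93, -1.54 and -1.42. The log2 of the summed level of the list was 16.29 to 16.32 in the control samples and 15.67 to 15.81 in the LY2090314 samples. Of the markers of other cells, the tested genes were Lyz2 (1 of 6 myeloid), Lck (1 of 6 T cell), Klrd1 (1 of 3 NK), Pecam1 (1 of 6 stromal and endothelial) and none of 5 erythroid genes. These rose by 0.53, 0.95, 1.21 and 1.204.

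The markers of those cells that were not tested were low, whereas tested ones reached higher levels. Means in control cells and with LY2090314 were 10.51 and 11.72 for Pecam1 and 11.41 and 12.36 for Lck. They were 5.80 and 6.34 for Lyz2 and 4.07 and 5.27 for Klrd1. Mpo, Elane, Ncr1, Hba-a1, Col1a2 and Cxcl12 were listed at 0, and no untested marker exceeded 2.44 in any sample. The log2 of the summed level was 5.84 to 6.04 in the control samples and 6.39 to 6.51 in the LY2090314 samples for the myeloid list. It was 11.36 to 11.47 and 12.26 to 12.51 for the T cell list, nearly all from Lck, which B-lineage leukaemia cells can also express. It was 4.42 to 4.57 and 5.39 to 5.51 for the NK list, and 2.90 to 2.99 and 2.88 to 2.91 for the erythroid list. For the stromal and endothelial list it was 10.47 to 10.55 and 11.61 to 11.78, nearly all from Pecam1.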

How the data were processed

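RNA-seq libraries of polyadenylated RNA were made with a stranded kit. Per the labels and the study's methods, the authors quantified reads with Salmon, aligned to GRCm38 (mm10) with GENCODE vM24 and used DESeq2 1.30.1. The authors deposited 1 table of log2 (rlog) values for 41444 genes, 41157 with a symbol, and which samples entered the transformation is not given in the sources used here. Of 12 columns, 6 were matched to the ERT2 groups by name and 6 were not used, since all of their names read as Cre with LY, a single group.

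Genes with a mean of at least 3 were tested (limma 3.58.1 with a mean-variance trend, R 4.3.3, Benjamini-Hochberg adjustment, threshold 0.05). The calculation was tested on simulated data. For a single gene the smallest two-sided exact permutation p is 0.1, so none is given. Gene models are from GENCODE vM21 (GRCm38). The genes named were the members, genes overlapping their exons, nearest coding neighbours, up to 3 largest rises and falls per list, the 5 genes most like Slc16a5, and Ctnnb1, and any other gene was named after its values were seen. Members and lists were chosen with earlier results of these data known. Alternatives were no trend, no filter or a minimum of 5, median centring, quantile normalization, a stricter call rule and leaving out each sample. Counting 14A and 14B as 1 sample was added after seeing the data. The values of a few genes of the lists are not reported here, though the counts include them.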

Additional observations from a re-analysis of the deposited data

How the results depend on the processing

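The number of genes past the threshold, 5778, ranged from 4734 to 6228 when each sample was left out in turn, and was 693 with the added demand that the log2 difference reach 1 in size. The differences of Slc16a1 (0.36 to 0.45), Slc16a5 (4.82 to 4.94), Slc16a6 (1.01 to 1.09), Bsg (0.02 to 0.20) and Slc16a3 (-0.41 to -0.19) kept their sign under every alternative that was run, and that of Slc16a13 (-0.19 to 0.19) did not. When each sample was left out in turn, carriers and accessory proteins had 1 to 2 genes higher and 0 to 1 lower, lactate and pyruvate enzymes had 2 to 4 lower, and proton and bicarbonate genes had 1 to 5 higher. With 14A and 14B counted as 1 sample, carriers and accessory proteins had 1 gene higher and 0 lower, and proton and bicarbonate genes had 1 higher. The latter count was also 1 without a filter on low values. The cause of these shifts was not tested. No paired analysis was possible because numbers in the column names cannot be matched to the replicates of the titles, so the replicate block was not run, nor were the comparisons that need CreERT2 cells. No depth is known, rlog values shrink low genes, and 3 samples per group limit what can be seen for genes as variable as Slc16a13.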

Other observations

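The 5 genes whose values, centred on their mean, were closest to those of Slc16a5 over the 6 samples were Ky, Slamf6, Mmp15, Ppl and Cers6, with root mean square differences of 0.0382, 0.104, 0.141, 0.145 and 0.194 on the log2 scale. Ky, which encodes the kyphoscoliosis peptidase of muscle, stood at 5.29, 5.36 and 5.25 in the control samples and at 10.17, 10.18 and 10.21 in samples 14A, 14B and 15, so its level as well as its difference of 4.89 (SE 0.073) was close to that of Slc16a5. The differences of Slamf6, a receptor of lymphocytes, Mmp15, a membrane metalloproteinase, Ppl, the cytoskeletal linker periplakin, and Cers6, a ceramide synthase, were 5.08 (SE 0.054), 4.64 (SE 0.093), 4.62 (SE 0.086) and 4.58 (SE 0.091). When the values were not centred, Ky and Mmp15 were again among the 5 closest and the other 3 were Tsc22d1, Nkd1 and Slitrk3. Over 2 groups of 3 samples, such likeness says little more than that the genes rose by a like amount.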
